A study of Mus musculus with 12 samples.

Results

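The genes described here, 9 in number, are those that macrophages are known to switch on in injured or lipid-loaded tissue: Gpnmb, Trem2, Lgals3, Spp1, Cd9, Cd63, Lyz2, Fabp5 and Ly6c2. They were chosen by name, found by symbol among the 57180 genes of the deposited expression table, and followed through all 12 mouse libraries; all 9 matched a gene identifier. For liver, C57 mice received either CCl4 (carbon tetrachloride, which hepatocytes convert into a toxic radical) or vehicle, with 3 bulk RNA libraries in each group. The skin libraries, also 3 from CCl4-treated and 3 from vehicle-treated mice, were made by smart-seq from dorsal skin cells called CX3CR1+. Those mice were Cx3cr1-creER:Ai9, in which an inducible Cre made where the chemokine receptor gene Cx3cr1 is active switches on a red fluorescent reporter. The sources used here give neither Cre induction, cell sorting, CCl4 dose and timing nor sex and age. The word liver follows the sample labels; the design text has hepatocytes.

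Macrophages that clear dying cells and take up lipid are known, in liver and in other tissues, to carry a shared set of transcripts. TREM2 is a surface receptor that binds lipids and apoptotic cells and signals through the adaptor TYROBP, and GPNMB is a transmembrane glycoprotein of lysosome-rich phagocytes. Galectin-3 (Lgals3), osteopontin (Spp1) and lysozyme (Lyz2) are secreted, CD9 and CD63 are membrane-spanning tetraspanins, and FABP5 carries fatty acids inside the cell. Ly6c2 encodes a surface antigen of recently recruited monocytes, the cells from which many injury-associated macrophages arise. None of these genes is restricted to macrophages: Gpnmb is also made by melanocytes, Spp1 by bile duct cells, and Lgals3, Cd9 and Fabp5 by keratinocytes.

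Values are TPM, a length-scaled abundance that gives every library the same total, so sequencing depth is unknown and levels of different genes can be set side by side within a library. In liver, transcripts of the mitochondrial genome took 46.6% to 56.6% of all TPM in CCl4 libraries, against 17.3% to 19.5% in vehicle libraries, which lowers every other gene of the CCl4 libraries; the median tested gene was 0.59 lower on the log2 scale. With 16 similar copies of mitochondrial genes counted in, the share was 68.1% to 82.1% in CCl4 livers, against 25.7% to 28.4% in vehicle livers. The skin libraries held more than macrophages. Cx3cr1 itself had 5.28, 0 and 0.28 TPM in CCl4 skin libraries, against 3.91, 0.27 and 0.91 TPM in vehicle skin libraries, while the T cell gene Cd3g and the keratinocyte gene Krt14 had at least 273 and 264 TPM in all 6. The library of CCl4 replicate 3 stood apart from the other 5: Csf1r and Adgre1, which define macrophages, had 2.12 and 1.65 TPM there, against at least 36.9 and 63.6 TPM in each of the others. It also had 1.38 TPM of the complement gene C1qa and 20.7 TPM of the MHC class II gene H2-Ab1, which elsewhere had at least 131 and 4738 TPM. The skin difference of each member and the median of each list of related genes are therefore given with and without that library.

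**Figure D1:**
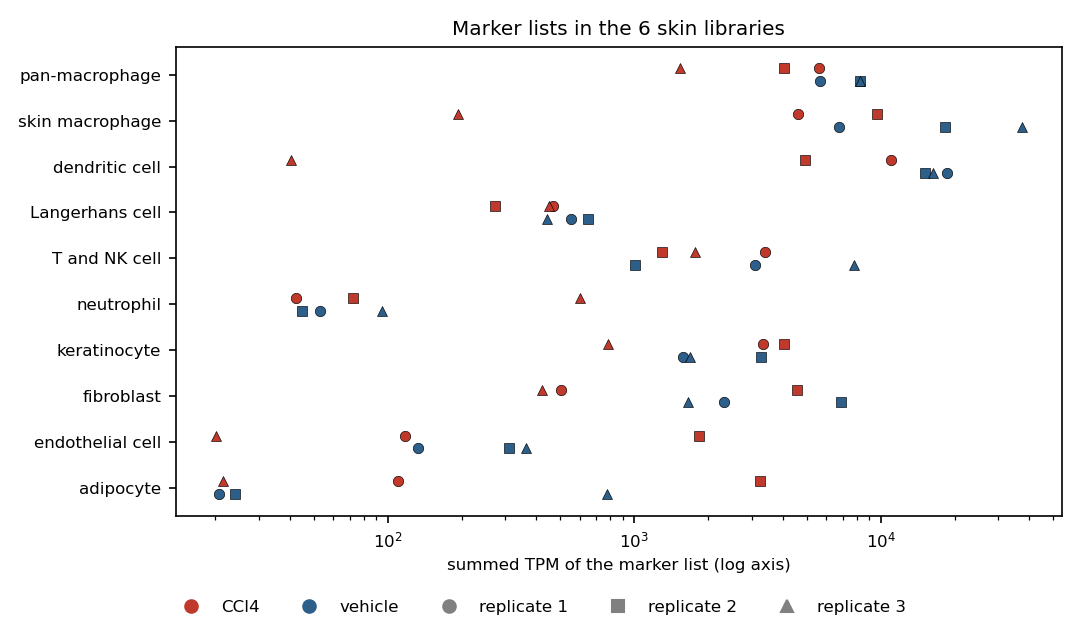
Summed TPM (log axis) of 10 lists of cell type markers in the 3 CCl4 (red) and 3 vehicle (blue) skin libraries; each symbol is 1 library and its shape the replicate. The library of CCl4 replicate 3 holds the lowest sums for pan-macrophage (1533 TPM), skin macrophage (192.5 TPM) and dendritic cell (40.3 TPM) markers and the highest for neutrophil markers (603.6 TPM), and that of CCl4 replicate 2 the highest endothelial cell (1826 TPM) and adipocyte (3245 TPM) sums. Single genes carry much of the last 3 sums: S100a8 (291 TPM), Ly6c1 (1524 TPM) and Cfd (2873 TPM). The neutrophil genes Mpo, Retnlg and Ly6g stayed under 0.5 TPM in every CCl4 skin library.

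Ly6c2 and Lyz2 each have a near-identical gene beside them on the chromosome, and short reads can be assigned to such copies in more than 1 way. The Ly6c2 transcript matched that of Ly6c1, a gene known from endothelial cells, at 97.6% identity over 822 of its 822 bases, and the Lyz2 transcript matched Lyz1, the lysozyme of Paneth cells, at 95.8% over 1264 of 1316 bases. The first 150 coding bases of each pair, from the GENCODE M21 annotation of GRCm38 (Ly6 genes on chromosome 15, lysozyme genes on chromosome 10), show where a read could tell them apart. Capitals mark the positions that differ within a pair.
Ly6c2: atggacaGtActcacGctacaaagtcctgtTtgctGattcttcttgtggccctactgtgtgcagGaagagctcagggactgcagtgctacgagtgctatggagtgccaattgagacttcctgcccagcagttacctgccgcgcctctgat
Ly6c1: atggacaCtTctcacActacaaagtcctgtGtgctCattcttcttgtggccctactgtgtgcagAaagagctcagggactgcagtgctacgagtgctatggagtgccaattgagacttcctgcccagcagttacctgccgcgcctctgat
Lyz2: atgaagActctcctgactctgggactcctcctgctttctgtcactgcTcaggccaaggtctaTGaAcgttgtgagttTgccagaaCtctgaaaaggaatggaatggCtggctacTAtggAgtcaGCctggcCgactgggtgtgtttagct
Lyz1: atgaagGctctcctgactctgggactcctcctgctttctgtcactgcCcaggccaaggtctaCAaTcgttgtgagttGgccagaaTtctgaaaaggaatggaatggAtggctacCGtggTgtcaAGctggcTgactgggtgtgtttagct
The Ly6 stretch differs at 6 positions and the lysozyme stretch at 14. Over the whole coding sequence Ly6c2 and Ly6c1 differ at 9 of 396 positions, with up to 188 bases in a row the same, and Lyz2 and Lyz1 at 22 of 447, with up to 118 bases in a row the same. Values of Ly6c2 and Lyz2 therefore carry an uncertainty from read assignment, and the copies are given beside them. Copies similar to Cd9, Cd63 and Fabp5, most of them pseudogenes, reached at most 2.03 TPM in any library.

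Promoter windows of 300 bases, from 250 before to 50 after the start site, were matched for 8 of the 9 members (all but Fabp5) in the RefSeq table for GRCm38.p6, with 10 windows in all. They were searched on both strands for TGANTCA, the site of AP-1 factors, GAGGAA, the core of the site of the myeloid factor PU.1, and CACGTG, the E-box of many lysosomal genes. The AP-1 letters stood in the windows of Gpnmb and Trem2 and in 7.81% of all 32851 windows of the table. Both windows are printed with the AP-1 match in capitals, and in the Trem2 window also a PU.1 core on the reverse strand.
Gpnmb, chr6:49036268-49036567, plus strand: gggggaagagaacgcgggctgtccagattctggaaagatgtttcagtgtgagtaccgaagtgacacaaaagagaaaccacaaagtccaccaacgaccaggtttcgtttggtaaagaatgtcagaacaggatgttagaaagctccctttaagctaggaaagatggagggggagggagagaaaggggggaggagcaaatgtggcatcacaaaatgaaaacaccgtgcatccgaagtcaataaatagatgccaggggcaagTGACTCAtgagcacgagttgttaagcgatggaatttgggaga
Trem2, chr17:48346151-48346450, plus strand: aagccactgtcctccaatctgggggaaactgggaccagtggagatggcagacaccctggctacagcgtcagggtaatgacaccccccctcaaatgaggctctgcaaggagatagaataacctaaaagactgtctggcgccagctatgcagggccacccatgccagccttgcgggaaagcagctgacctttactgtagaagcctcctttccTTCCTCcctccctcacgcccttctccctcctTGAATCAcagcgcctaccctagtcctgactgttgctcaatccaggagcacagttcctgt
The match lay 9 to 15 bases after the start site in Gpnmb and 9 to 3 bases before it in Trem2. The PU.1 core was found in windows of 4 members, Cd63, Ly6c2, Spp1 and Trem2, against 28.3% of all windows, and the E-box in windows of 0 members, against 7.15%.

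In injured liver, 7 members rose: Gpnmb, Trem2, Lgals3, Spp1, Cd9, Cd63 and Lyz2. Fabp5 did not pass the test, and Ly6c2 was too low to be tested. Of all 10385 genes tested in liver, 10.3% were higher and 51.1% lower in CCl4 libraries by the same limma test. That split rests on the scaling: with mitochondrial genes and their copies taken out of the total, 66.8% were higher and 4.2% lower, and 62.7% and 4.78% with mitochondrial genes and the 10 most abundant genes taken out. Gpnmb, Trem2, Lgals3 and Cd63 passed the expression filter (1 TPM in at least 3 of the 6 libraries) only through their CCl4 libraries, so the number called among members that passed is not evidence for the set. In bulk liver, more macrophages and more RNA of these genes in each macrophage cannot be told apart.

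**Figure D2:**
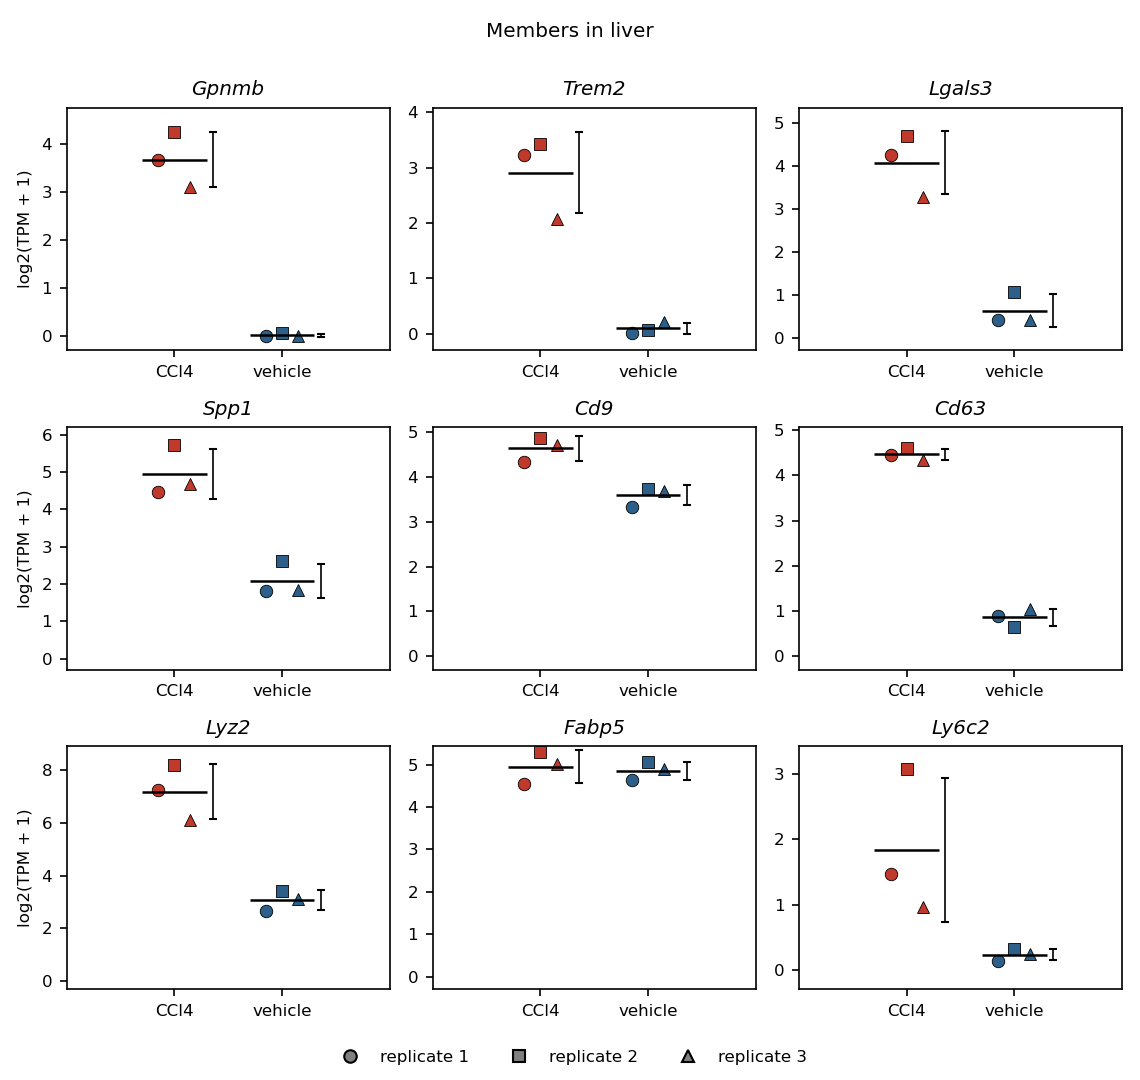
Log2(TPM + 1) of the 9 members in CCl4 and vehicle liver libraries, 1 panel per gene with its own vertical scale; symbols are libraries, horizontal lines the group means and error bars 1 SD (n = 3). The groups overlap in the Fabp5 panel and in no other.

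Gpnmb and Trem2 were almost absent from vehicle liver. Gpnmb had 11.8, 18.1 and 7.64 TPM in CCl4 livers, against 0, 0.04 and 0 TPM in vehicle livers. It was thus present in every CCl4 library and listed at or near 0 in every vehicle library, and it rose by 3.66 ± 0.26 on the log2(TPM + 1) scale (SE; limma adjusted p = 4.85e-06). Trem2 had 8.43, 9.79 and 3.20 TPM in CCl4 livers, against 0.01, 0.05 and 0.16 TPM in vehicle livers. The lowest CCl4 library was well above the highest vehicle library, and the rise was 2.81 ± 0.30 (limma adjusted p = 6.87e-05).

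Among the secreted proteins, Lgals3 had 18.2, 25.2 and 8.68 TPM in CCl4 livers, against 0.33, 1.09 and 0.33 TPM in vehicle livers. Galectin-3, a lectin that binds galactose-bearing glycoproteins, thus rose without overlap, by 3.45 ± 0.34 (limma adjusted p = 4.09e-05), and its group mean was 29.8-fold higher. Spp1 had 20.9, 51.4 and 24.6 TPM in CCl4 livers, against 2.52, 5.12 and 2.55 TPM in vehicle livers. Osteopontin, a ligand of integrins and CD44, was already measurable in vehicle liver and rose by 2.86 ± 0.35 (limma adjusted p = 0.000138), a 9.50-fold higher mean. Markers of bile duct cells, which also make osteopontin, summed to 8.05 to 11.3 TPM in CCl4 livers and 5.13 to 5.85 TPM in vehicle livers over 9 genes, of which Sox9 rose (by 0.64, limma adjusted p = 0.0213). Krt19, a keratin of bile duct cells, had 2.15, 3.63 and 0.67 TPM in CCl4 livers, against 0.07, 0.10 and 0.23 TPM in vehicle livers, and was highest in replicate 2, as Spp1 was. The part of bile duct cells in the Spp1 result was not tested. Lyz2, the lysozyme of myeloid cells and the most abundant member in CCl4 liver, had 149, 291 and 67.4 TPM there, against 5.35, 9.57 and 7.70 TPM in vehicle livers. The rise of 4.11 ± 0.46 (limma adjusted p = 8.13e-05) came with a 22.4-fold higher mean, while its copy Lyz1 had at most 0.88 TPM in any liver library.

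Of the tetraspanins, Cd63, which sits in late endosomes and lysosomes, had 21.0, 23.2 and 19.4 TPM in CCl4 livers, against 0.86, 0.57 and 1.05 TPM in vehicle livers. Its CCl4 libraries lay closest together of all members relative to their mean (21.2 ± 1.92 TPM, SD, n = 3), and it rose by 3.61 ± 0.21 (limma adjusted p = 9.60e-07), the lowest adjusted p of the set. Cd9, a plasma membrane tetraspanin that organises adhesion receptors, had 19.0, 28.2 and 25.4 TPM in CCl4 livers, against 9.05, 12.3 and 11.9 TPM in vehicle livers. It was well expressed in vehicle liver and rose by only 1.05 ± 0.26 (limma adjusted p = 0.0056), a 2.18-fold higher mean without overlap. In a single fit over all 12 libraries the Cd9 call was lost, at a limma adjusted p of 0.0618.

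Fabp5 had 22.5, 38.7 and 31.2 TPM in CCl4 livers, against 23.8, 32.3 and 28.7 TPM in vehicle livers. The groups overlapped, and the log2 difference of 0.10 ± 0.29 did not pass the test (limma adjusted p = 0.783; 95% interval -0.55 to 0.74). This depended on the scaling: the Fabp5 difference was 0.69 with median-ratio scaling and 1.15 with quantile normalization, and 1.70 or 1.78 once mitochondrial transcripts were taken out of the total, each called higher. The 7 members that rose were called higher under all 4 of these scalings as well, under which 17.7%, 17.1%, 62.7% and 66.8% of all genes were higher, so under the last 2 a higher call was common. Ly6c2 had 1.76, 7.42 and 0.95 TPM in CCl4 livers, against 0.10, 0.24 and 0.18 TPM in vehicle livers. All 3 CCl4 libraries were above all vehicle libraries, with a log2 difference of 1.61; the exact permutation test gave 0.1, the smallest p that 3 libraries against 3 allow, and without the filter limma gave an adjusted p of 0.0723. Ly6c1 had 0.37, 2.10 and 0.40 TPM in CCl4 livers, against 0.33, 0.39 and 0.38 TPM in vehicle livers, so the copy overlapped between groups and was highest in the same library as Ly6c2.

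Counting by values alone, 8 of the 9 members were higher in every CCl4 liver than in any vehicle liver and 0 were lower, against 11.4% of all tested genes higher and 58.8% lower without overlap. That count is a description: Ly6c2 is not among the tested genes, and 4 of the others passed the filter only through their CCl4 libraries. The members also shared an order among the CCl4 libraries. Replicate 2 held the highest value of all 9 members, against 25.3% of all tested genes, and replicate 3 held the lowest value of 6 of them, whereas replicate 3 was the highest library for 71.0% of all genes. Summed over the 9 genes, replicates 1, 2 and 3 held 272, 493 and 188 TPM, against 42.0, 61.3 and 52.6 TPM in the vehicle livers. The 12 pan-macrophage markers summed in the same order, to 125, 174 and 58.9 TPM in CCl4 livers, against 13.5, 21.4 and 14.6 TPM in vehicle livers. Replicate 2 also had the most RNA of blood cells: the haemoglobin gene Hba-a2 reached 397.93 TPM there and at most 4.41 TPM in any other liver library, and the neutrophil gene S100a8 had 37.2, 130.32 and 10.1 TPM in CCl4 livers, against 0.16, 0 and 0 TPM in vehicle livers; the part of blood cells in its high member values was not tested. Without replicate 2 the same number of members, 7, was called, and 9.64% of all tested genes were called higher.

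Markers of several cell types moved with the members, in a comparison where 10.3% of all tested genes were called higher and 51.1% lower. Of the pan-macrophage list 10 of 10 tested genes rose, with all 12 listed genes above 0.5 TPM in at least 1 CCl4 library. Of the Kupffer cell list 9 of 12 rose and 1 fell, the nuclear receptor gene Nr1h3 (by 1.14), which was called lower under 1 and higher under 2 of the 4 other scalings; the list had sums of 211 to 394 TPM in CCl4 livers and 112 to 147 TPM in vehicle livers. Of the endothelial list 8 of 8 rose (119 to 368 TPM in CCl4 livers and 19.6 to 23.9 TPM in vehicle livers), and of the stellate cell and fibroblast list 7 of 7 (86.4 to 185 TPM in CCl4 livers and 7.45 to 10.9 TPM in vehicle livers). Of the neutrophil list 4 of 5 tested genes rose, with sums of 74.8 to 379 TPM in CCl4 livers and 21.5 to 28.0 TPM in vehicle livers, while Mpo, Elane, Camp and Ly6g stayed under 0.5 TPM in every CCl4 library. In all vehicle livers 12 of the 13 neutrophil genes and 8 of the 11 stellate cell and fibroblast genes stayed under 0.5 TPM. Those of them that were tested passed the filter only through their CCl4 libraries. So did genes of other lists, among them Cd14 of the pan-macrophage list (0.63 ± 0.18 TPM in vehicle livers) and Lyve1 of the endothelial list (0.99 ± 0.14 TPM there; SD, n = 3 each). The counts of all these lists are therefore a description. The same holds for such genes of the lists below. Of the hepatocyte list 11 of 11 fell, with sums of 13630 to 32060 TPM in CCl4 livers, against 70810 to 78610 TPM in vehicle livers. Under the 4 other scalings 7 to 11 of them were called lower and 0 higher. The part of each cell type in the member values was not tested.

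Partners of the members in liver moved less uniformly. Tyrobp, the adaptor through which TREM2 signals, averaged 37.9 ± 27.0 TPM in CCl4 livers and 3.47 ± 0.82 TPM in vehicle livers (SD, n = 3 each) and rose by 2.88 ± 0.44 (limma adjusted p = 0.000441). The lipid phosphatase gene Inpp5d and Adam10, whose protease sheds TREM2, rose by 1.34 and 0.63, so that 3 of the 5 testable genes of the TREM2 signalling list rose and 0 fell, with a list median of 0.63 against -0.59 over all genes. For osteopontin, its receptor genes Cd44 (6.84 ± 3.46 TPM in CCl4 livers and 0.39 ± 0.24 TPM in vehicle livers) and Itga9 (6.06 ± 1.92 TPM in CCl4 livers and 0.63 ± 0.11 TPM in vehicle livers) rose by 2.40 and 2.08, within a list of receptors and ligands of which 5 of 14 rose and 6 fell (median 0.07). Its lower calls depended on the scaling: 7 were higher and 5 lower under median-ratio scaling, and 8 and 0 under quantile normalization. With mitochondrial transcripts taken out of the total 9 were higher and 0 lower, where 62.7% or 66.8% of all genes were higher. Of the tetraspanin list 2 of 9 rose and 4 fell (median -0.37): the leukocyte gene Cd53 rose by 2.57, whereas Cd82 fell by 1.29. Under median-ratio scaling 3 of these genes were higher and 3 lower, and under quantile normalization 2 and 1. With mitochondrial transcripts taken out, 6 of the 9 were higher and 0 lower (median up to 1.28), beside the same shares of all genes as above. The Cd82 difference ran between -0.70 and 0.36 over the 4 scalings, called lower in 1.

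The lipid-associated macrophage programme, a list of genes for lipid uptake, storage and lysosomal breakdown, was split, with 8 of 21 tested genes higher and 7 lower (median -0.12). Mmp12, a macrophage elastase, averaged 17.5 ± 7.22 TPM in CCl4 livers and 0.04 ± 0.03 TPM in vehicle livers (SD, n = 3 each) and rose by 4.07 ± 0.26 (limma adjusted p = 2.03e-06). The beta-glucan receptor gene Clec7a and the haem-degrading enzyme gene Hmox1 rose by 3.57 and 2.65, whereas Apoe, which hepatocytes also make in large amounts, fell by 1.92. The lower calls of this list depended on the scaling: 9 genes were higher and 3 lower under median-ratio scaling, and 12 and 2 under quantile normalization. With mitochondrial transcripts and their copies taken out of the total, 19 of the 21 were higher and 0 lower, but 66.8% of all genes were higher there. In the fatty acid handling list 2 of 11 rose and 7 fell (median -0.99). The counts were 2 higher and 6 lower under median-ratio scaling (median -0.51) and 2 and 7 under quantile normalization (median -0.58). Without mitochondrial genes and the 10 most abundant genes they were 4 and 3 (median 0.32). With mitochondrial transcripts and their copies taken out they were 4 and 1 (median 0.40). Fabp4, the paralog of Fabp5 known from fat cells, macrophages and endothelium, had 21.7, 61.5 and 14.8 TPM in CCl4 livers, against 2.07, 1.35 and 1.62 TPM in vehicle livers, a rise of 3.40 ± 0.41 (limma adjusted p = 0.000125) where Fabp5 was not called.

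The remaining lists bear on Ly6c2 and the lysosomal members. Of 9 tested genes of the infiltrating monocyte list 5 rose and 3 fell (median 1.24). The chitinase-like gene Chil3 averaged 6.59 ± 3.87 TPM in CCl4 livers and was listed at 0 in all vehicle livers, and the chemokine receptor gene Ccr2 had 0.65, 4.24 and 0.13 TPM in CCl4 livers, against 0, 0.15 and 0.05 TPM in vehicle livers. Haptoglobin (Hp), which hepatocytes also secrete, and the interferon-induced gene Ifitm3 fell by 2.04 and 1.67. Of the list 2 genes were called lower under median-ratio scaling, 0 under quantile normalization, and 1 or 0 once mitochondrial transcripts were taken out. Hp was called lower under 2 of the 4 other scalings and Ifitm3 under 1. Of the lysozyme and Ly6 paralogs 3 of 4 rose, led by Ly6d (18.6 ± 7.02 TPM in CCl4 livers and 0.53 ± 0.13 TPM in vehicle livers), and 1 fell, Ly6e (by 1.06, limma adjusted p = 0.0138). Ly6e was called higher under 2 and lower under 0 of the 4 other scalings. Of the MiT/TFE factors and lysosome regulators, 1 of 10 rose, the macrophage-enriched factor Tfec (by 1.31), and 2 fell (median -0.30). Under median-ratio scaling 2 were higher and 1 lower, and under quantile normalization 3 and 1. With mitochondrial transcripts taken out 7 were higher and 0 lower (median 0.93 or 1.01), where 62.7% or 66.8% of all genes were higher.

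To set the members against the general macrophage signal, each was expressed as its log2(TPM + 1) minus the mean of the 12 pan-macrophage genes in the same library, a difference that depends on the library total only through the added constant. That mean was itself 1.96 higher in CCl4 livers. Relative to it, 5 members were higher in every CCl4 library than in any vehicle library: Lyz2 by 2.14, Gpnmb by 1.70, Cd63 by 1.65, Lgals3 by 1.49 and Trem2 by 0.85 on the log2 scale. Only 1.44% of all tested liver genes were higher without overlap on this measure, and 91.7% were lower, since the mean itself was higher; as all of the 5 but Lyz2 passed the filter only through their CCl4 libraries, the share is not evidence for the set. Lgals3 was the steadiest, at 1.00, 0.93 and 0.98 in CCl4 livers, against -0.61, -0.31 and -0.65 in vehicle livers. The groups were therefore far apart compared with their spread, but the exact permutation p was 0.1, the smallest possible. Gpnmb and Trem2 were near 0 TPM in vehicle livers, where log2(TPM + 1) is at its floor, and their differences depend on the added constant: 4.04 and 2.64 with 0.1 in place of 1, and 0.67 and 0.13 with 5. Lgals3 and Cd63 were also low there, and their differences were 2.04 and 1.87 with 0.1, and 0.84 and 1.08 with 5. That of Lyz2 was 1.58 with 0.1 and 2.49 with 5. Fabp5 was lower in every CCl4 library, by 1.87, with most other genes. Spp1 (0.90), Cd9 (-0.91) and Ly6c2 (-0.36) overlapped between groups.

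**Figure D3:**
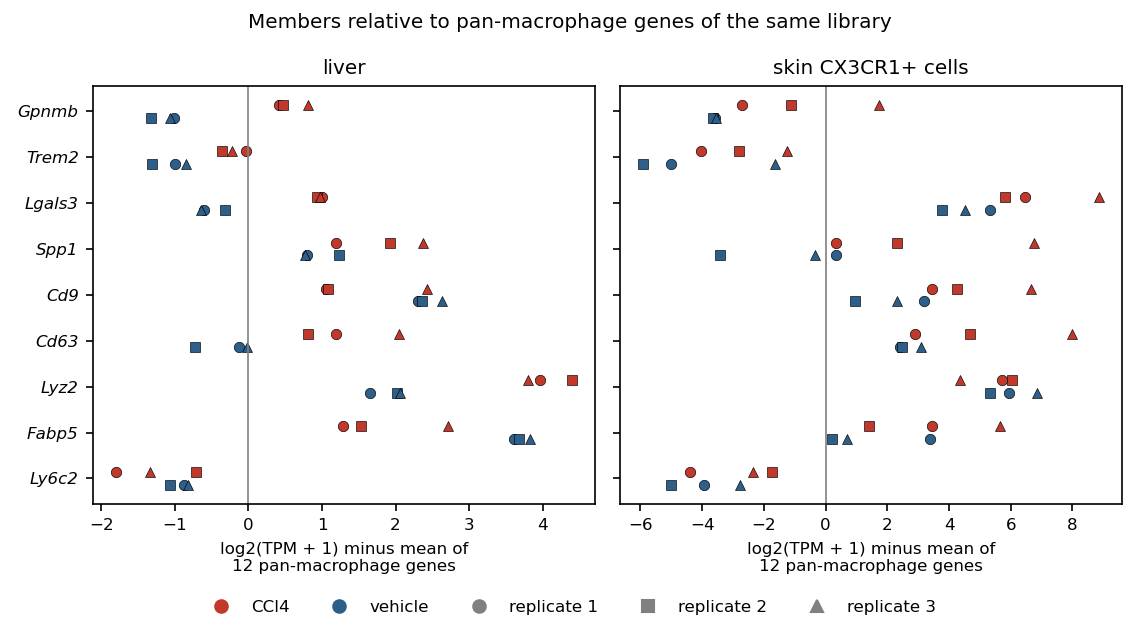
Each member's log2(TPM + 1) minus the mean of 12 pan-macrophage genes of the same library, in liver (left) and skin (right), with CCl4 in red above vehicle in blue; shapes are replicates and the vertical line marks a level equal to that mean. In liver the red and blue symbols of Gpnmb, Trem2, Lgals3, Cd63 and Lyz2 do not overlap and red lies to the right; in skin CCl4 replicate 3 (triangle) is the rightmost red symbol for 7 of 9 members.

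In skin CX3CR1+ cells no member passed the test after CCl4: limma gave an adjusted p of 0.9999 for each of the 9. Of all 13767 genes tested in skin 0 were called either, 0% in each direction, and 288 (2.09%) had an unadjusted p under 0.05, among them 1 of the 9 members, Spp1. With all 12 libraries in 1 limma fit, 1 gene was called lower and no member. The 95% intervals were wide, so a missed threshold does not show that a member was the same in both groups. By values alone, Lgals3 was higher and Lyz2 lower in every CCl4 library than in any vehicle library, against 2.56% and 2.72% of all genes, and the other 7 members overlapped. The summed pan-macrophage markers were lower in all 3 libraries of CCl4 skin than in any vehicle library, at 5614, 4053 and 1533 TPM, against 5696, 8230 and 8222 TPM in vehicle skin. Single genes of the list, among them Fcer1g, Csf1r and Cd68, overlapped between groups, while Adgre1 did not. Fcer1g alone had 2498, 1455 and 1249 TPM in CCl4 skin, against 2496, 2196 and 4869 TPM in vehicle skin. The part of the lower sums in the member values was not tested.

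**Figure D4:**
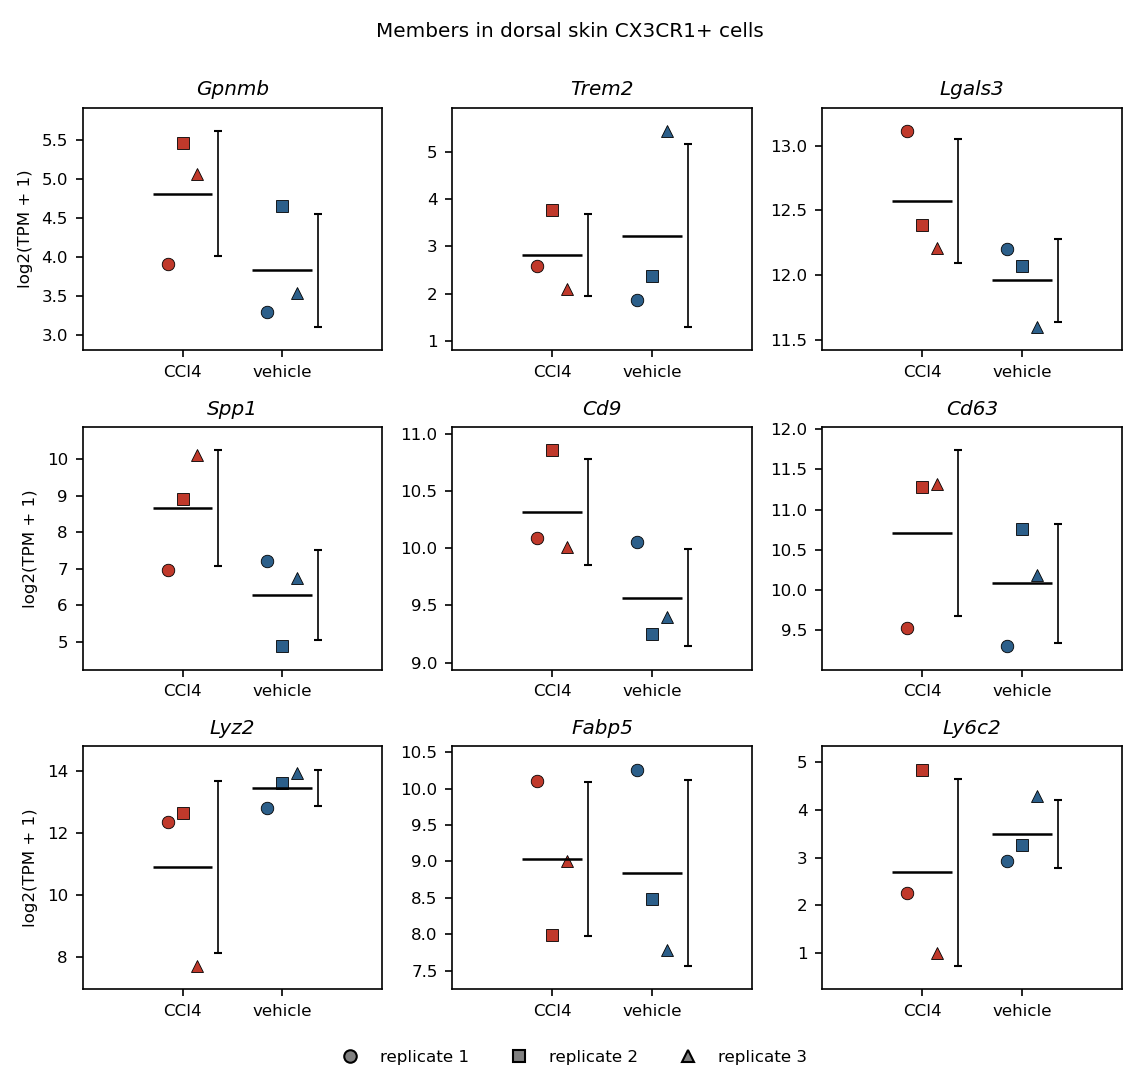
Log2(TPM + 1) of the 9 members in CCl4 and vehicle libraries of skin CX3CR1+ cells, 1 panel per gene with its own vertical scale that does not start at 0; symbols are libraries, horizontal lines the group means and error bars 1 SD (n = 3). The groups are apart only for Lgals3 and Lyz2, and CCl4 replicate 3 (triangle) is the lowest point for Lyz2 (208 TPM) and Ly6c2 (0.98 TPM) and the highest for Spp1 (1094 TPM).

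Lyz2 and Spp1 had the largest skin differences, in opposite directions. Lyz2 had 5256, 6357 and 208 TPM in CCl4 skin, against 7237, 12605 and 15754 TPM in vehicle skin. Every CCl4 library was lower, and replicate 3, the library nearly without macrophage markers, was far below the rest. The log2 difference was -2.56 ± 1.15 (SE; exact permutation p = 0.1, the smallest possible), and -0.97 ± 0.47 without that library, still without overlap. The copy Lyz1 followed the same order of groups, with 488, 122 and 19.9 TPM in CCl4 skin, against 818, 1860 and 599 TPM in vehicle skin. Spp1 had 124, 474 and 1094 TPM in CCl4 skin, against 146, 28.4 and 106 TPM in vehicle skin. Osteopontin was highest in the library with the fewest macrophage markers, and CCl4 replicate 1 lay below vehicle replicate 1. The log2 difference was 2.38 ± 0.90 (exact permutation p = 0.2), and 1.66 ± 0.90 without CCl4 replicate 3.

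Lgals3 had the highest mean TPM of the 9 in CCl4 skin, although Lyz2 exceeded it in CCl4 replicate 2 (6357 TPM). Lgals3 had 8870.03, 5361 and 4729.97 TPM in CCl4 skin, against 4709.52, 4308 and 3098 TPM in vehicle skin. The lowest CCl4 library exceeded the highest vehicle library by little, and the log2 difference was 0.61 ± 0.46, or 0.79 ± 0.46 without CCl4 replicate 3. Keratinocytes are also rich in galectin-3, and the 10 keratinocyte markers summed to 3319, 4050 and 785 TPM in CCl4 skin, against 1571, 3261 and 1686 TPM in vehicle skin. Their part in the Lgals3 values was not tested.

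The tetraspanins had at least 609 TPM in every skin library. Cd9 had 1087, 1855 and 1031 TPM in CCl4 skin, against 1061, 609 and 674 TPM in vehicle skin. Vehicle replicate 1 lay between the CCl4 libraries, and the log2 difference was 0.75 ± 0.50, or 0.90 ± 0.53 without CCl4 replicate 3. Cd63 had 736, 2496 and 2551 TPM in CCl4 skin, against 629.74, 1732 and 1167 TPM in vehicle skin. Replicate 1 was the lowest library of both groups, and the log2 difference was 0.63 ± 0.65, or 0.32 ± 0.70 without CCl4 replicate 3.

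Gpnmb had 14.1, 42.9 and 32.3 TPM in CCl4 skin, against 8.82, 24.1 and 10.7 TPM in vehicle skin. CCl4 replicate 1 lay below vehicle replicate 2, so the groups overlapped, with a log2 difference of 0.98 ± 0.70, or 0.86 ± 0.80 without CCl4 replicate 3. The 8 melanocyte markers summed to 4.97, 22.3 and 4.53 TPM in CCl4 skin, against 11.0, 9.59 and 13.6 TPM in vehicle skin. Their sum was highest in CCl4 replicate 2, also the highest library for Gpnmb, where the pigment enzyme gene Tyrp1 alone had 8.86 TPM. Mlana and Sox10 were highest there too, at 1.68 and 2.9 TPM. The other markers were highest in vehicle libraries: Dct, Tyr and Slc45a2 in replicate 3 (6.81, 2.57 and 1.78 TPM), Pmel in replicate 1 (2.07 TPM) and Mitf in replicate 2 (4.03 TPM). The part of melanocytes in the Gpnmb values was not tested. Trem2 had 5.01, 12.8 and 3.25 TPM in CCl4 skin, against 2.65, 4.18 and 42.6 TPM in vehicle skin. Vehicle replicate 3 alone was above all others, and it decided the sign: the log2 difference was -0.41 ± 1.00 with it and 0.70 without it, and -0.04 ± 1.15 without CCl4 replicate 3. The TREM2 adaptor Tyrobp had 1252, 765 and 70.2 TPM in CCl4 skin, against 1468, 1463 and 3365 TPM in vehicle skin, the highest value falling in the same vehicle library.

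Fabp5 had 1096, 252 and 511 TPM in CCl4 skin, against 1224, 357 and 219 TPM in vehicle skin. It was highest in replicate 1 of both groups, the libraries numbered 1 in the labels, which also listed more genes above 0 than the others (28357 in CCl4 and 28870 in vehicle, against 21328 to 23494). The log2 difference was 0.19 ± 0.78, and 0.20 ± 0.91 without CCl4 replicate 3. Between the libraries numbered 1 alone it was -0.16, with 1 library a side and no test. The other members differed there by 0.91 (Lgals3), 0.72 (Trem2), 0.62 (Gpnmb), 0.22 (Cd63), 0.03 (Cd9), -0.24 (Spp1), -0.46 (Lyz2) and -0.67 (Ly6c2), so Spp1 and Trem2 had the opposite sign to the comparison of all 6 libraries. Between the libraries numbered 4, of which that from CCl4 skin is CCl4 replicate 3, the differences were 5.22 for Spp1, 0.52 for Fabp5, -0.29 for Trem2, -2.28 for Ly6c2 and -5.92 for Lyz2. Ly6c2 had 3.77, 27.7 and 0.98 TPM in CCl4 skin, against 6.61, 8.59 and 18.7 TPM in vehicle skin. The CCl4 values spanned those of vehicle, and the log2 difference of -0.80 ± 0.99 turned to 0.05 ± 0.95 without CCl4 replicate 3. The copy Ly6c1 had 96.7, 1524 and 10.9 TPM in CCl4 skin, against 105, 279 and 305 TPM in vehicle skin. CCl4 replicate 2, its highest library and that of Ly6c2, also had the highest sum of endothelial markers, 1826 TPM against 20.1 to 363 TPM elsewhere. That list includes Ly6c1 itself, which gave 1524 of the 1826 TPM, so the sum is not separate from the Ly6c1 value. The part of endothelial cells in Ly6c2 was not tested.

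Set against the pan-macrophage mean of the same skin library, which was 1.89 lower in CCl4 skin, Gpnmb (2.87), Cd9 (2.64) and Lgals3 (2.51) were higher in every CCl4 library than in any vehicle library. This was common in skin: 23.9% of all tested genes were higher without overlap on this measure and 0.0581% lower. Gpnmb stood at -2.72, -1.13 and 1.72 in CCl4 skin, against -3.58, -3.64 and -3.54 in vehicle skin, so its vehicle libraries were nearly equal while its CCl4 libraries spread widely. The exact permutation p was 0.1 for each of the 3. The number of members without overlap was 6 without CCl4 replicate 1, 5 without vehicle replicate 1 or 3, 4 without CCl4 replicate 2, and 3 without CCl4 replicate 3, where the differences were 1.66 (Gpnmb), 1.71 (Cd9) and 1.60 (Lgals3). With 1 library fewer, groups separate more easily for any gene. The share of all genes in these settings is not given, so these counts cannot be set against that from all 6 libraries. Lyz2 overlapped on this measure (-0.67), and the difference was 0.18 when the skin macrophage list took the place of the pan-macrophage list.

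The partner lists gave no called gene in skin. The median log2 difference of the TREM2 signalling list was -1.43 over 13 tested genes and that of the infiltrating monocyte list -1.28 over 13, against -0.05 over all genes and 0.61 over the 9 members. That of the lipid-associated macrophage programme was -0.73 over 23 genes, of the osteopontin and galectin-3 partners -0.40 over 17, of the tetraspanins and partners -0.38 over 13, of the lysozyme and Ly6 paralogs -0.36 over 7, of the MiT/TFE list -0.39 over 8 and of the fatty acid handling list 0.40 over 10. Without CCl4 replicate 3 the median was 0.32 over the 9 members and -0.04 over all genes, and those of the lists were -0.74 for TREM2 signalling, -0.82 for infiltrating monocytes, -0.11 for the lipid programme, -0.09 for the osteopontin and galectin-3 partners, -0.02 for the tetraspanins, 0.20 for the lysozyme and Ly6 paralogs, -0.09 for MiT/TFE and 0.61 for fatty acid handling, so that of the paralogs turned in sign. The genes with the lowest p among them were Lyz1, given above, and Ccr2, at 2.44 ± 2.64 TPM in CCl4 skin and 18.4 ± 7.83 TPM in vehicle skin (SD, n = 3 each), neither of them called. Ctsl, a lysosomal protease gene of the lipid programme, had 320.09, 552 and 4482 TPM in CCl4 skin, against 190.06, 625 and 332 TPM in vehicle skin, and Cd68 had 583, 660.24 and 84.1 TPM in CCl4 skin, against 516, 1143 and 1255 TPM in vehicle skin. In CCl4 replicate 3 the lysosomal and secreted genes Ctsl and Spp1 were thus at their highest, and Cd68 and Lyz2 at their lowest.

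**Figure D5:**
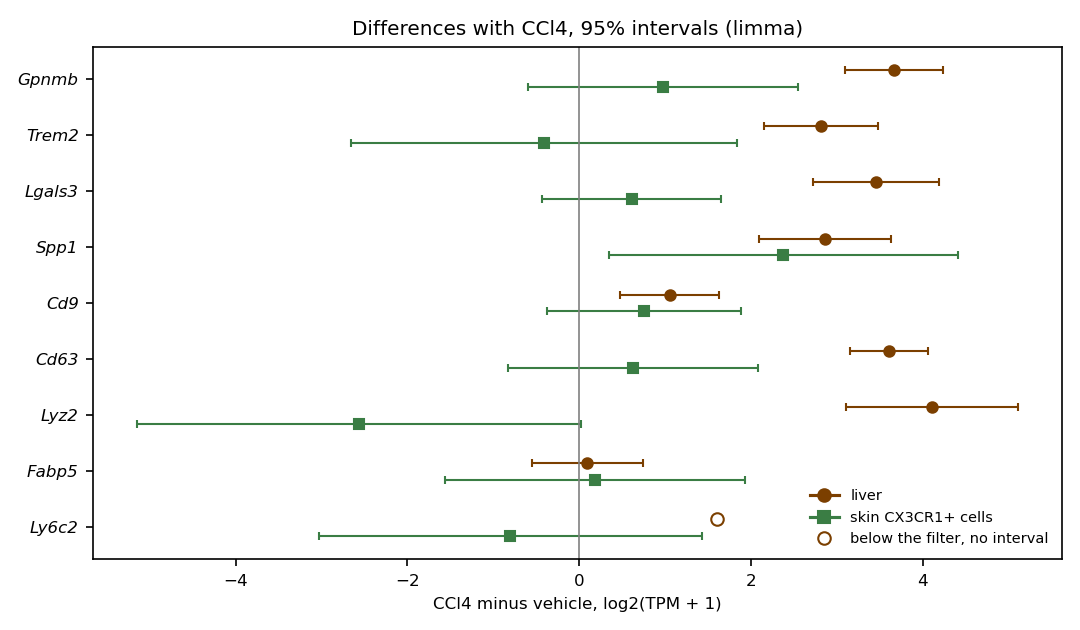
Log2(TPM + 1) difference, CCl4 minus vehicle, of each member in liver (brown circles) and skin CX3CR1+ cells (green squares), with 95% intervals from limma; the open circle is Ly6c2 in liver, which was below the filter and has no interval. The liver intervals of all tested members but Fabp5 lie above 0, and in skin only that of Spp1 does, before adjustment for the number of genes.

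The liver and skin effects were compared directly in 1 limma model of all 12 libraries. The estimated effect was higher in liver than in skin for Lyz2 by 6.67 ± 1.43 on the log2 scale (adjusted p = 0.0653), for Trem2 by 3.22 ± 1.11 (adjusted p = 0.15), for Cd63 by 2.98 ± 0.71 (adjusted p = 0.0733), for Lgals3 by 2.84 ± 0.60 (adjusted p = 0.0641) and for Gpnmb by 2.68 ± 0.72 (adjusted p = 0.0938). None of these passed the adjusted threshold of 0.05, so 0 of the 8 testable members were called different between tissues by limma, against 0.151% of all 9255 genes called higher and 0.0648% lower. An unadjusted p under 0.05 was reached by these 5 members and by 20.2% of all genes. The result sat near the threshold and depended on the processing: 4 members (Gpnmb, Lgals3, Cd63 and Lyz2) were called under median-ratio scaling, and 6, adding Trem2 and Cd9, once mitochondrial transcripts were taken out of the total. Of all genes 1.78% were called higher under median-ratio scaling and 4.92% or 5.88% without mitochondrial transcripts. The same 4 members were called with a replicate block and with library number 1 as a batch term. Of all genes 2% were called higher and 1.73% lower with the block, and 0.756% and 0.659% with the batch term. With 1 library left out, the number called was 4 without skin vehicle replicate 3 (1.93% of all genes higher), 3 without skin CCl4 replicate 1 (1.43%) and 2 without liver CCl4 replicate 3 (0.724%). It was 1 without skin CCl4 replicate 2 (0.637%) or 3 (0.14%), and 0 without any of the others (0.0324% to 0.0864%). Without skin CCl4 replicate 3 the differences were 5.07 for Lyz2, the member called (limma adjusted p = 0.0245), 3.29 for Cd63, 2.86 for Trem2, 2.81 for Gpnmb and 2.66 for Lgals3. For Spp1 the estimates were 2.86 in liver and 2.38 in skin, with a difference of 0.48 (95% interval -1.83 to 2.79). For Cd9 they were 1.05 and 0.75, with a difference of 0.30 (95% interval -0.80 to 1.40), and for Fabp5 0.10 and 0.19, with a difference of -0.09 (95% interval -1.98 to 1.80).

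Across the 4 groups, vehicle liver had the lowest mean TPM of every member. The skin groups exceeded both liver groups without overlap for Lgals3, Cd9, Cd63 and Fabp5. Lgals3 stood at 6320 ± 2230 TPM in CCl4 skin, 4038 ± 839 TPM in vehicle skin, 17.4 ± 8.31 TPM in CCl4 liver and 0.58 ± 0.44 TPM in vehicle liver (SD, n = 3 each), with no overlap between neighbours in that order. For Gpnmb, CCl4 liver (12.5 ± 5.25 TPM) overlapped with vehicle skin (14.5 ± 8.34 TPM), and both were below CCl4 skin in mean (29.8 ± 14.6 TPM) without being apart from it. For Trem2, CCl4 liver (7.14 ± 3.48 TPM) matched CCl4 skin (7.01 ± 5.06 TPM) within the spread, and vehicle skin was 16.5 ± 22.6 TPM. For Cd63, CCl4 skin (1927 ± 1033 TPM) overlapped with vehicle skin (1176 ± 551 TPM), and both were apart from CCl4 liver (21.2 ± 1.92 TPM), as they were for Cd9 (1325 ± 460.3, 782 ± 245 and 24.2 ± 4.72 TPM in the same 3 groups). For Spp1, CCl4 skin (564 ± 491 TPM), vehicle skin (93.6 ± 60.0 TPM) and CCl4 liver (32.3 ± 16.7 TPM) each overlapped with the next. For Lyz2, CCl4 skin (3940 ± 3279 TPM) overlapped with CCl4 liver (169 ± 113 TPM) through its replicate 3, and vehicle skin was higher (11870 ± 4306 TPM). Ly6c2 was low throughout, at 10.8 ± 14.7 TPM in CCl4 skin, 11.3 ± 6.50 TPM in vehicle skin and 3.38 ± 3.53 TPM in CCl4 liver, all overlapping. Tissue, assay and strain differ together between liver and skin and cannot be told apart.

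The genes whose profile over the 12 libraries came nearest to each member, by the root mean square difference of centred log2(TPM + 1) among 12872 candidates, are given here as a description. For Lyz2 it was Tyrobp, the TREM2 adaptor gene (0.72, where the Lyz2 profile itself had a root mean square of 4.12), and then Tmsb4x. For Lgals3 it was the monocyte chemokine gene Ccl2 (0.82) and then the calcium-binding S100a6, for Cd63 the annexin gene Anxa1 (0.60) and Nupr1, and for Spp1 the protease inhibitor gene Slpi (0.63) and Pdlim7. Cd9 lay closest to Dynll1 (0.35) and Plp2, Fabp5 to Def6 (0.35) and Stn1, Gpnmb to Rasd1 (0.57) and Akap2, Trem2 to Plekho1 (0.69) and Serpina3g, and Ly6c2 to Bst1 (0.47) and Kcne3. These distances describe the 12 libraries, which share the contrast between tissues, and carry no test.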

How the data were processed

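The authors deposited 1 table of TPM for 12 libraries. RSEM, StringTie, HISAT2, fastp and the build GRCm39 are named in the submitters' processing notes, without versions or roles. The labels describe 1 poly(A) bulk protocol for all libraries, also those made by smart-seq. Differences of log2(TPM + 1) were tested with limma 3.58.1 under R 4.3.3 (lmFit, eBayes with trend, two-sided), separately in liver and skin, over genes with at least 1 TPM in at least 3 of the 6 libraries. Calls are Benjamini-Hochberg adjusted p under 0.05 over all genes, and "rose" and "fell" are used of called genes only. Effects are CCl4 minus vehicle; on this scale those of low genes are understated. Precision is limited by 3 libraries a group, which the design text calls biological replicates. Exact permutation tests were two-sided. The members, the 8 function lists and the 18 marker lists were chosen with earlier results of these data known. Named list genes are the 3 of lowest p per list, those defining a cell type, and genes described after their values were seen (Apoe, Ctsl, Cd68, Ccr2, S100a8, Hba-a2, Krt19, Sox9, Tyrp1 and the other melanocyte markers, Ly6e, Nr1h3). Similar transcripts were found with BLAST 2.17.0. The test was also run on simulated data with set differences, and the outcome is not given here. Alternatives were other pseudocounts, filters, scalings and fits, and leaving out each library; list medians in skin without CCl4 replicate 3 were added after seeing the data.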

Additional observations from a re-analysis of the deposited data

Results flagged for a closer look

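The Lyz2 effect differed in direction between tissues: every CCl4 liver library was higher than the vehicle livers, and every CCl4 skin library lower than the vehicle skin libraries, a difference of 6.67 on the log2 scale. The test of this difference gave a limma adjusted p of 0.0653, and 0.0245 to 0.202 when 1 library at a time was left out. Skin CCl4 replicate 3 held 208 TPM of Lyz2 and few macrophage markers; without it the difference was 5.07 (limma adjusted p = 0.0245). The cause was not tested.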

How the results depend on the processing

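In liver, 7 members were called under each left-out library, where 9.31% to 10.6% of all genes were called higher. Under the other alternatives 6 to 8 were called, where 3.22% to 66.8% of all genes were higher. Of 135 values over 17 alternatives 128 kept direction and call. In skin 0 were called under all 19 alternatives. The number called different between tissues, 0, is given next for each alternative that moved it, with the share of all genes called higher. It was 5 with a pseudocount of 0.1 (1.37%), 4 with median-ratio scaling (1.78%), 1 with quantile normalization (0.778%) and 6 with either rescaling without mitochondrial genes (4.92% or 5.88%). It was 4 with a replicate block (2%), 4 with library number 1 as a batch term (0.756%), 1 without both skin libraries numbered 1 (0.357%), and 0 to 4 with 1 library left out (0.0324% to 1.93%). The cause was not tested. Relative to pan-macrophage genes, the non-overlapping members numbered 6 to 7 in liver and 3 to 6 in skin with 1 library left out. Groups separate more easily there for any gene, and the share of all genes is not given. Differences between tissues turned in direction for Fabp5, to 0.32, 1.10, 1.505 and 1.61 under the 4 scalings (-0.80 to 0.45 with 1 library left out), for Spp1, to -0.23 with a pseudocount of 5 and -0.83 without both skin libraries numbered 1 (-0.36 to 1.205 with 1 left out), and for Cd9, to -0.057 without both of those. With 1 library left out, the range passed 0 for Fabp5 in liver (-0.081 to 0.30) and in skin (-0.35 to 0.89), and in skin for Trem2 (-1.09 to 0.70) and Ly6c2 (-1.88 to 0.051). Relative to other macrophage genes, Ly6c2 in liver turned to 0.51 (pseudocount 0.1) and 0.18 (Kupffer cell list) and Lyz2 in skin to 0.18 (skin macrophage list). Deviations of same-numbered libraries correlated at -0.04 to 0.08 in liver and, by the replicate numbers of the titles, 0.09 to 0.59 in skin; by the library numbers there the correlation was 0.59 for number 1 and -0.18 for number 4. Not every pair was above 0.1, so the numbers were not taken to pair samples. Depth is unknown, so the precision of low values such as Ly6c2 in liver cannot be given.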
